A study of Mus musculus with 16 samples.

Results

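The genes described here, 9 of the 19935 measured in mouse liver, encode proteins that move fatty acids into cells and carry them inside. They were chosen by name: the surface proteins Cd36 and Mfsd2a, the transport proteins Slc27a1, Slc27a4 and Slc27a5, and the binding proteins Fabp1, Fabp2, Fabp4 and Fabp5. Every probe set that the array's annotation pairs with 1 of these symbols alone was used, which gave 10 probe sets of 21780, because Fabp5 has 2. The livers came from 3 PPARβ/δ knockout mice fasted for 24 h, 5 wild-type mice fasted for 24 h, 4 fed knockout mice and 4 fed wild-type mice. All 16 mice were male, the knockout line is on a mixed Sv129/C57Bl/6 background with wild-type mice to match, and each mouse gave 1 array. PPARβ/δ is a nuclear receptor activated by fatty acids and encoded by Ppard. The labels and design text used here state neither the age of the mice nor which exon was deleted or in which tissues.

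Fatty acids reach the liver either bound to albumin after release from fat tissue or inside lipoproteins, and fasting increases the first of these flows. CD36 takes up long-chain fatty acids at the cell surface, the SLC27 proteins couple entry to activation as acyl-CoA, and the small cytosolic FABPs carry fatty acids to the organelles that oxidise or store them. FABP1 is the abundant form in hepatocytes, FABP2 is best known from the intestine, FABP4 from adipocytes and macrophages, and FABP5 from skin and many other tissues. SLC27A5 is a liver protein that also activates bile acids. MFSD2A carries lysophosphatidylcholine, which often bears docosahexaenoic acid, across cell membranes.

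All values are log2 intensities of an Affymetrix whole-transcript array, so that 1 unit is a doubling. Levels of different genes are not set against each other, because each probe set has its own response. A change is called where the Benjamini-Hochberg adjusted p of the limma fit over all genes is under 0.05, and each change is given with its standard error (SE). The Ppard probe set read 4.36 to 4.58 in the fasted knockout mice against 4.40 to 4.67 in the fasted wild-type mice, and 4.45 to 5.00 in the fed knockout mice against 4.78 to 5.50 in the fed wild-type mice. These ranges overlap, and because the deleted exon is not given, the probe set could not be used to check the genotype labels. The summed signal of 7 measured hepatocyte markers lay between 14.42 and 14.61 in all 16 livers. Exocrine pancreas markers reached 8.30 in wild-type fasted mouse 5, against 6.17 or less in the knockout mice and the fed wild-type mice. Pairs of arrays correlated at 0.976 to 0.991 over all genes.

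Fasting moved 3 of the 9 genes in wild-type livers: Mfsd2a rose, and Cd36 and Fabp5 fell. Of all genes, 3.30% rose and 5.92% fell in that comparison. In knockout livers Mfsd2a rose and Fabp5 fell, where 1.87% of all genes rose and 1.80% fell. The knockout changed 1 member, Cd36, which was higher in fasted knockout than in fasted wild-type livers; in that comparison 0.351% of all genes were higher and 0.186% were lower. No member differed between fed knockout and fed wild-type livers in the limma fit, where 0.677% of all genes did. None reached an unadjusted p under 0.05 there, where 2631 of all 19935 genes did. The median change of the 9 genes was 0.06 under fasting in wild-type and 0.07 in knockout livers, against 0.03 and -0.02 over all genes. The 2 fasting comparisons share no mice with each other, but each shares its fed or fasted mice with a genotype comparison.

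**Figure D1:**
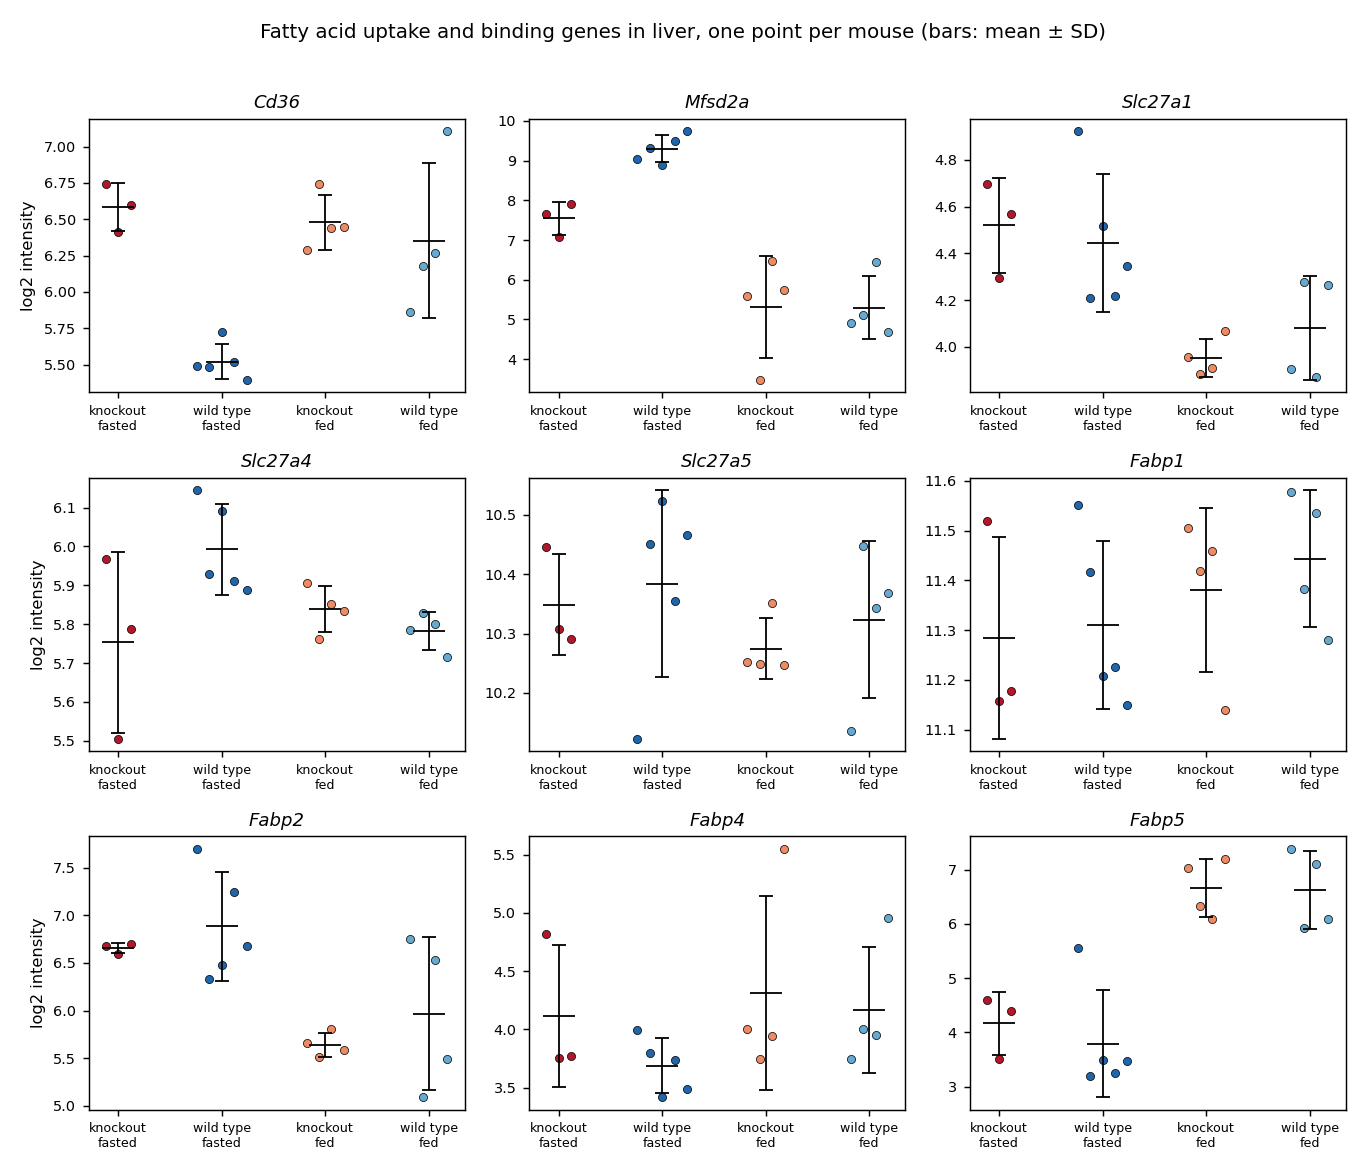
Log2 intensity of each of the 9 genes (one panel each) in every mouse (points) with the group mean (bar), for fasted knockout, fasted wild-type, fed knockout and fed wild-type mice from left to right. Mfsd2a is high and Fabp5 low in both fasted groups, while Cd36 is low in the 5 fasted wild-type mice, at 5.40 to 5.72.

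Cd36 was low in one group alone. It read 6.74, 6.41 and 6.60 in the fasted knockout mice and 5.49, 5.48, 5.72, 5.52 and 5.40 in the fasted wild-type mice. In fed mice it read 6.29, 6.74, 6.44 and 6.45 in knockout and 5.86, 6.18, 6.27 and 7.11 in wild type. The 5 fasted wild-type mice lay below every other mouse, and the other 3 groups overlapped. The group means ran in the order fasted knockout (6.58 ± 0.16, SD, n = 3), fed knockout (6.48 ± 0.19, n = 4), fed wild type (6.35 ± 0.53, n = 4) and fasted wild type (5.52 ± 0.12, n = 5), and neighbours among the first 3 did not differ beyond their spread.

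Fasted knockout livers held 2.09-fold more Cd36 signal than fasted wild-type livers (log2 change 1.06 ± 0.19 SE, 95% interval 0.66 to 1.47, limma adjusted p = 0.0178), which ranked 45 by p among all genes. Under fasting, Cd36 fell 1.78-fold in wild-type livers (-0.83 ± 0.18, adjusted p = 0.00595). In knockout livers the fasting change was 0.10 ± 0.20 (interval -0.32 to 0.53, adjusted p = 0.883). The difference between these 2 fasting changes was 0.94 ± 0.27 (interval 0.37 to 1.51), with an unadjusted p of 0.0029 and an adjusted p of 0.231, so a dependence of the fasting change on genotype did not pass over all genes. Of all genes, 0.0100% passed that test of the difference, none of them a member. An unadjusted limma p under 0.05 was reached by 3 of the 9 members (Cd36, Mfsd2a and Slc27a4) and by 2441 of all 19935 genes. In the fed state the genotypes differed by 0.13 ± 0.19 (interval -0.27 to 0.52). Averaged over both feeding states, the knockout effect on Cd36 was 0.60 ± 0.13 (adjusted p = 0.033), the one member called where 1.55% of all genes were. The fasted difference was no longer called when any 1 of the 3 fasted knockout mice was left out (log2 changes 0.99 to 1.15, adjusted p = 0.0674 to 0.0967), and without wild-type fasted mouse 5 it was 1.03 (adjusted p = 0.0456).

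Cd36 is also made by liver macrophages and endothelial cells. The summed signal of 10 macrophage markers was 9.77 to 9.96 in fasted knockout and 9.05 to 9.80 in fasted wild-type livers, and 10.16 to 10.27 in fed knockout against 9.51 to 9.79 in fed wild-type livers. Of these 10 markers, 1 was called higher in fasted knockout livers, 2 in fed knockout livers and 5 in the mean over feeding states. Under fasting, 1 fell in knockout livers. Of all genes, 0.351% were higher in fasted knockout livers and 1.80% fell under fasting in knockout livers. In either direction, 0.677% passed between the fed genotypes and 1.55% in the mean. Clec4f, a surface lectin of the resident macrophages, read 7.41 to 7.69 in fasted knockout and 6.74 to 7.25 in fasted wild-type livers. All the other macrophage markers overlapped between these groups, and Marco tended lower in fasted knockout (2.54 to 2.94) than in fasted wild-type livers (2.92 to 3.30). The 10 endothelial markers summed to 10.14 to 10.31 in fasted knockout and 9.82 to 10.08 in fasted wild-type livers, groups that do not overlap. The fed ranges of the sum, which reached 10.38 in knockout and 10.40 in wild-type livers, both overlapped that of fasted wild-type livers. Within the list, Clec4g read 8.27 to 8.85 in fasted knockout and 7.41 to 8.08 in fasted wild-type livers. Lyve1 was also higher without overlap (4.49 to 4.99 against 3.93 to 4.35). Pecam1, Cdh5, Kdr, Tek, Stab2, Egfl7, Ptprb and Gpihbp1 overlapped between the fasted genotypes. Under fasting, 2 of the 10 markers fell in wild-type livers, where 5.92% of all genes fell. The part of either cell type in the Cd36 result was not tested, and in whole liver a change in the number of cells of a type and a change in RNA per cell cannot be told apart.

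The promoter of Cd36 is shown because it was the member called between the fasted genotypes. It covers chr5:17835847-17836146 on the minus strand of GRCm38.p6, from 250 bases before to 50 after a RefSeq start. The gene spans chr5:17781690-17888959, so this start lies inside it, and other possible starts of Cd36 were not searched. The capitals mark 1 copy, on the other strand, of AGGTCA, the core that nuclear receptors of the PPAR kind bind.
Cd36: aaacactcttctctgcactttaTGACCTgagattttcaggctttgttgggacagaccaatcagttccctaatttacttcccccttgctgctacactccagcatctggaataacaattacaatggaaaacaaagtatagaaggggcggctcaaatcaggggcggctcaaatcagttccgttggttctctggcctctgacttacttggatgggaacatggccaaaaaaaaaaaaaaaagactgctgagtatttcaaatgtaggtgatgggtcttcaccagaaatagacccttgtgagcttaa

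Mfsd2a had the widest range of the 9 genes. It read 7.66, 7.08 and 7.90 in fasted knockout and 9.05, 9.33, 8.89, 9.49 and 9.74 in fasted wild-type mice. Fed values were 5.58, 3.48, 6.47 and 5.74 in knockout and 4.92, 5.12, 6.46 and 4.67 in wild-type mice. Every fasted mouse lay above every fed mouse, every fasted knockout mouse lay below every fasted wild-type mouse, and the fed groups overlapped.

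Fasting raised Mfsd2a 16.1-fold in wild-type livers (log2 change 4.01 ± 0.46, limma adjusted p = 4.02e-05) and 4.69-fold in knockout livers (2.23 ± 0.52, adjusted p = 0.0235). The fasted genotypes differed by -1.75 ± 0.50 (interval -2.81 to -0.70, adjusted p = 0.168), which did not pass over all genes although the groups do not overlap. The difference between the fasting changes was -1.78 ± 0.70 (adjusted p = 0.326), and the fed genotypes differed by 0.02 ± 0.48 (interval -1.0 to 1.05). One low value, 3.48 in fed knockout mouse 2, widened the shared spread: without that mouse the fasted difference had the same size and an adjusted p of 0.0259, and fitted on the fasted groups alone it had an adjusted p of 0.00661. The fasted difference was called in these 2 of 26 alternatives alone, with limma adjusted p up to 0.478 in the others and changes from -1.93 to -1.52. Leaving out fed knockout mouse 2 also lowered the fasting change in knockout livers to 1.62 (adjusted p = 0.0234). The knockout fasting call was lost without any 1 of the 3 fasted knockout mice (changes 2.05 to 2.46, adjusted p = 0.0514 to 0.114), with a variance trend (adjusted p = 0.0699) and in the 2 knockout groups alone (adjusted p = 0.0937).

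The promoter of Mfsd2a, chr4:122961139-122961438 on the minus strand of GRCm38.p6, is shown for comparison with that of Cd36, and its capitals mark 1 copy of AGGTCA read in the direction of the gene.
Mfsd2a: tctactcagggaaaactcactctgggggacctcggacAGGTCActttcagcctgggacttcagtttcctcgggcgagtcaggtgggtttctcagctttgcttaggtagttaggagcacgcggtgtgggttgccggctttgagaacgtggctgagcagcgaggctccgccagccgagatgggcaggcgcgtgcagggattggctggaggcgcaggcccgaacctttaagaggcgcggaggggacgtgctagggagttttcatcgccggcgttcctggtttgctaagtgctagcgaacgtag

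Promoters of 6 of the 9 genes were in the RefSeq table of GRCm38.p6, with 3 for Slc27a1, 8 in all, and 5 motifs were searched on both strands. The receptor core AGGTCA lies in 16.3% of all 32851 promoters of that length. Counted from the start, its first base was at -228 in Cd36, at -213 in Mfsd2a and at -67 and -9 in Fabp1. The PPAR element was searched in its exact form alone, as 2 copies of that core in the same direction with 1 base between, which overlaps the core. This exact form lies in 0.0396% of promoters and was in none of the 8, and a form with a changed letter would not be found. In Fabp1 the copy at -67 is followed, after 1 base, by TGGCCT, which differs from TGACCT in 1 letter.

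The glucocorticoid receptor's element was searched as 2 inverted copies of AGAACA with 3 bases between. It lies in 0.00913% of all promoters and was not found in those of the members. The same held for the cyclic AMP element, searched by its 8 letters TGACGTCA, which 1.79% of all promoters hold. These are exact matches of letters in a short window, and they show neither binding nor its absence.

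**Figure D2:**
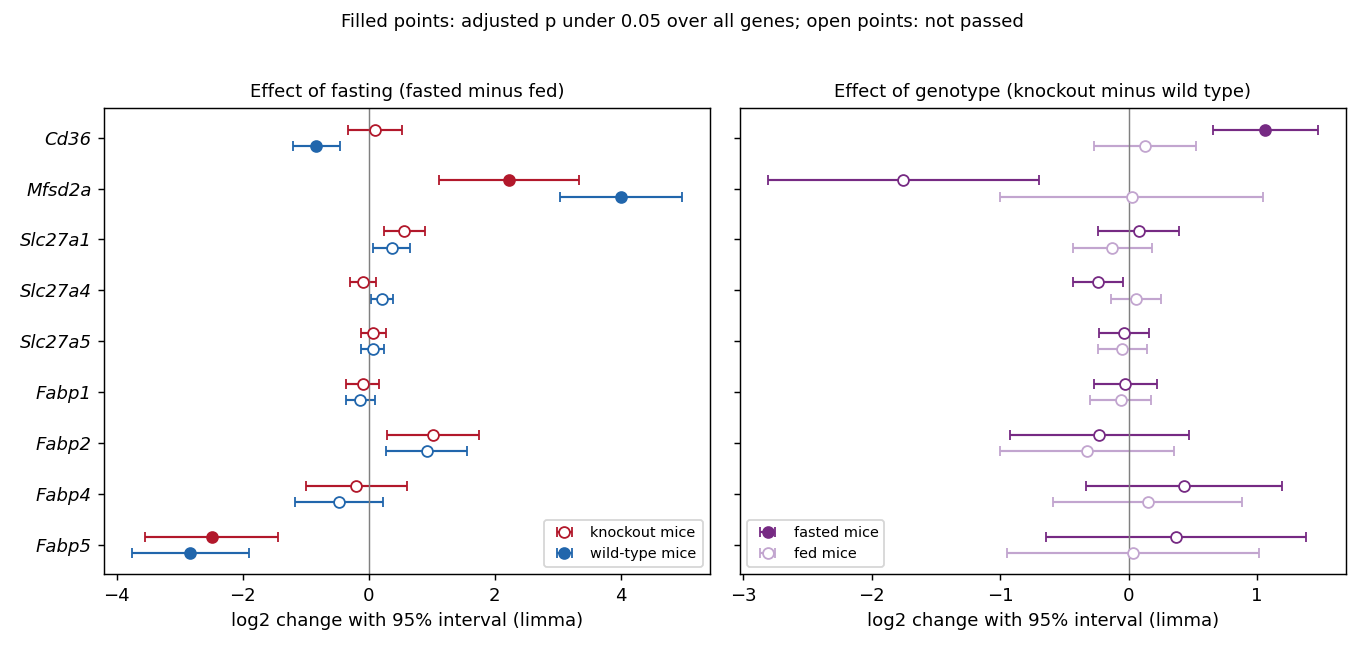
Log2 change of each gene with its 95% interval, for fasting (left, fasted minus fed, in knockout and in wild-type mice) and for genotype (right, knockout minus wild type, in fasted and in fed mice). Filled points passed an adjusted p of 0.05. Mfsd2a and Fabp5 are filled in both fasting comparisons, and Cd36 is the one filled gene in the right panel.

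None of the 3 SLC27 members passed in any comparison. Slc27a1, which transports fatty acids mainly in muscle and fat, read 4.70, 4.30 and 4.57 in fasted knockout and 4.92, 4.21, 4.52, 4.22 and 4.35 in fasted wild-type mice, against 3.96, 3.88, 3.91 and 4.07 in fed knockout and 3.91, 4.28, 3.87 and 4.27 in fed wild-type mice. The knockout groups do not overlap between feeding states and the wild-type groups do. Its fasting change was 0.57 ± 0.16 in knockout (interval 0.24 to 0.90, limma adjusted p = 0.0544) and 0.36 ± 0.14 in wild-type livers (adjusted p = 0.117). The change in knockout livers passed in 6 of 26 alternative settings.

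Slc27a4, the main intestinal and skin form, read 5.97, 5.51 and 5.79 in fasted knockout and 6.15, 5.93, 6.09, 5.91 and 5.89 in fasted wild-type mice. Fed mice read 5.91, 5.76, 5.85 and 5.84 in knockout and 5.78, 5.83, 5.80 and 5.71 in wild type. In wild-type mice every fasted value lay above every fed one, a change of 0.21 ± 0.09 (interval 0.03 to 0.39, adjusted p = 0.15). Fasted knockout and fasted wild-type livers differed by -0.24 ± 0.09 (adjusted p = 0.375).

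Slc27a5 stayed within 10.12 to 10.52 in all 16 mice. Its changes lay between -0.05 and 0.07 in the 4 comparisons of 2 groups, and the widest of their intervals ran from -0.13 to 0.28. A doubling in either direction lies outside all 4 intervals. Of the other 3 members of the family, Slc27a2, the most studied long-chain transporter of hepatocytes, rose under fasting by 0.57 ± 0.09 in knockout (adjusted p = 0.00259) and by 0.65 ± 0.08 in wild-type livers (adjusted p = 8.69e-05). Slc27a3 and Slc27a6 did not pass in any comparison.

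Fabp5 fell under fasting in both genotypes. Its brighter probe set read 4.59, 3.51 and 4.40 in fasted knockout and 5.55, 3.20, 3.50, 3.25 and 3.48 in fasted wild-type mice. Fed mice read 7.02, 6.32, 6.10 and 7.19 in knockout and 7.38, 5.93, 7.10 and 6.09 in wild type. Every fasted mouse lay below every fed mouse. Among fasted wild-type mice, mouse 1 was high at 5.55, and among fed mice of each genotype 2 stood above the other 2.

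Fasting lowered Fabp5 5.63-fold in knockout (log2 change -2.49 ± 0.50, limma adjusted p = 0.00957) and 7.12-fold in wild-type livers (-2.83 ± 0.44, adjusted p = 0.00057). The second probe set gave -2.64 ± 0.49 and -2.70 ± 0.43. Both probe sets are annotated to the same gene and may share probes, so the second is no independent measurement. The difference between the fasting changes was 0.34 ± 0.67 (interval -1.07 to 1.75). Knockout and wild-type livers differed by 0.37 ± 0.48 in fasted mice (interval -0.64 to 1.38) and by 0.03 ± 0.46 in fed mice (interval -0.95 to 1.01). The call in knockout livers was lost without fasted mouse 2 (-2.16, adjusted p = 0.0661) and without fed mice 1 and 4 together (-2.04, adjusted p = 0.129), the fed knockout mice with the highest Fabp5 values.

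Fabp2 was higher in fasted mice of both genotypes on average, without passing the test. It read 6.68, 6.59 and 6.69 in fasted knockout and 7.70, 6.33, 6.47, 7.24 and 6.68 in fasted wild-type mice, against 5.66, 5.51, 5.81 and 5.59 in fed knockout and 6.76, 5.09, 6.53 and 5.49 in fed wild-type mice. The knockout mice were tightly grouped in each feeding state and the groups do not overlap, while the wild-type groups were wide and overlapped. The fasting change was 1.02 ± 0.35 in knockout (interval 0.28 to 1.75, limma adjusted p = 0.134) and 0.92 ± 0.30 in wild-type livers (interval 0.28 to 1.56, adjusted p = 0.0713). Fitted on the 2 knockout groups alone, the same change had an adjusted p of 0.00143, since the wild-type spread then no longer entered. The 8 small-intestine markers summed to 10.70 to 11.22 in fasted knockout and 11.38 to 12.28 in fasted wild-type livers, against 10.43 to 11.08 in fed knockout and 11.14 to 11.35 in fed wild-type livers. The fasted wild-type mice thus lay above the fed wild-type mice, while the knockout groups overlapped. Most of the sum came from Apoa4, an apolipoprotein gene that liver also expresses, at 10.66 to 11.19 in fasted knockout, 11.36 to 12.27 in fasted wild-type, 10.38 to 11.05 in fed knockout and 11.12 to 11.32 in fed wild-type livers. Among fasted wild-type mice it was highest in mice 1 and 4, which also had the highest Fabp2. In each of the other groups the mouse with the highest Fabp2 had the lowest Apoa4. These were fed wild-type mouse 1, fed knockout mouse 3 and fasted knockout mouse 3. Cdx1 read 3.69 to 4.17 in all mice, and Vil1, Alpi, Lct, Sis, Muc2 and Cdx2 read 1.66 to 2.91, around or below 2.79, the 40th percentile of all genes. No marker of the list was called in a fasting comparison, and their part in the Fabp2 values was not tested.

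Fabp1, the main liver form, stayed within 11.14 to 11.58 in all mice. Its fasting changes were -0.10 ± 0.12 in knockout (interval -0.35 to 0.16) and -0.13 ± 0.11 in wild-type livers (interval -0.36 to 0.09), and its genotype differences were -0.03 ± 0.12 in fasted and -0.06 ± 0.11 in fed mice. Its promoter, chr6:71199629-71199928 on the plus strand of GRCm38.p6, is shown as that of a gene with no called change. Capitals mark 2 copies of AGGTCA on the other strand and 1 TATAAA, which 13.6% of promoters hold.
Fabp1: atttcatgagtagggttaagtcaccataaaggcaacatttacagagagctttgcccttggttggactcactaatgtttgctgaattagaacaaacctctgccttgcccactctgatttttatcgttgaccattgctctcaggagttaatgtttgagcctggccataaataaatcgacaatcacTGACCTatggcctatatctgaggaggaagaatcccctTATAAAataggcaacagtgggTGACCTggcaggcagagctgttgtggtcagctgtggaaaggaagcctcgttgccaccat

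Fabp4 varied between single mice more than between groups. It read 4.82, 3.75 and 3.77 in fasted knockout and 4.00, 3.79, 3.42, 3.74 and 3.49 in fasted wild-type mice, against 4.01, 3.74, 3.94 and 5.55 in fed knockout and 3.74, 4.01, 3.95 and 4.96 in fed wild-type mice. In 3 of the 4 groups 1 mouse stood above the rest. Adipoq, the defining adipocyte hormone, read 2.25 in fed knockout mouse 4 and 2.35 in fed wild-type mouse 4, the fed mice with high Fabp4. It read 2.02 in fasted knockout mouse 1, also high in Fabp4, and 1.75 to 2.10 in all mice but those 2 fed ones, all below the 40th percentile of all genes. Retn, Plin4 and Cidec were also highest of their group in the 2 fed mice, and Plin1 was not. Lep read 2.14 and 2.08 in them, within its range elsewhere. Lipe was the highest of its group in the knockout (4.69) and the lowest in the wild-type mouse (4.13). The 7 measured adipocyte markers summed to 6.19 to 6.42 in fasted knockout, 6.46 to 7.67 in fasted wild-type, 5.99 to 6.50 in fed knockout and 6.01 to 6.17 in fed wild-type livers. Within that list, Cidec read 6.98 in fasted wild-type mouse 1 and 3.61 to 4.61 in the other 4 fasted wild-type mice, and Plin4 read 4.83 to 5.28 in fasted and 3.83 to 4.30 in fed wild-type livers. Adipoq, Lep, Retn and Plin1 stayed at or below 3.15 in all mice. The part of adipocytes in the Fabp4 values was not tested. No change in Fabp4 passed, and its intervals reached from -1.18 to 1.19 over the 4 comparisons of 2 groups.

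**Figure D3:**
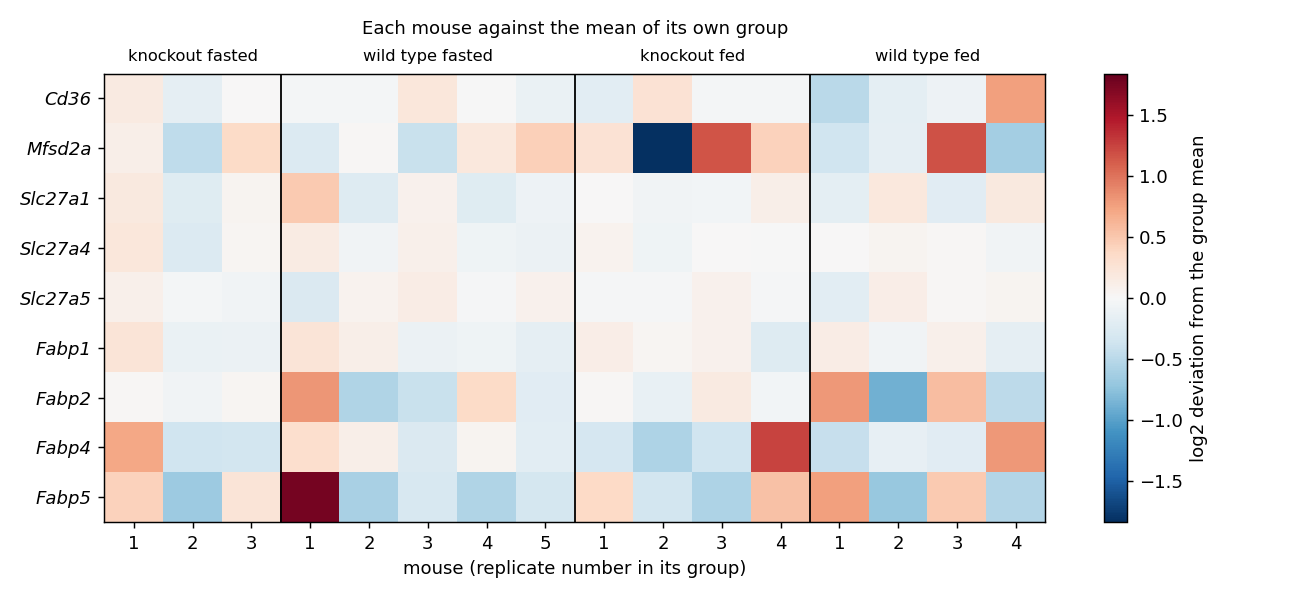
Deviation of each gene (rows) from its group mean in each of the 16 mice (columns), in log2 units, with the groups from left to right as fasted knockout, fasted wild type, fed knockout and fed wild type. Fasted knockout mouse 2 is the lowest of its group in 8 of the 9 genes, and wild-type fasted mouse 1 is the highest of its group in 6.

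The 9 genes differed widely in how much mice of one group varied. The pooled within-group SD was 0.80 for Mfsd2a, 0.76 for Fabp5, 0.57 for Fabp4, 0.52 for Fabp2 and 0.30 for Cd36, which placed these genes between the 94.7th and the 99.6th percentile of all genes. It was 0.22 for Slc27a1, 0.17 for Fabp1 and 0.12 for both Slc27a4 and Slc27a5, against a median of 0.148 over all genes. Fasted knockout mouse 2 was the lowest of its 3 mice in 8 of the 9 genes, where it was lowest in 35.5% of all genes, and fasted knockout mouse 1 was the highest in 7, against 36.5% of all genes.

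Each gene had its own closest companions across the 16 arrays. Of 11499 genes ranked, Lpl, the lipoprotein lipase that frees fatty acids from lipoproteins, was most like Cd36 (Pearson r = 0.92 over 16 arrays, 0.88 for deviations from group means). Lpl read 6.36, 5.19 and 5.49 in fasted knockout and 4.54, 4.13, 4.53, 4.32 and 4.32 in fasted wild-type mice, again 2 groups that do not overlap. Fed mice read 4.86, 5.94, 5.64 and 6.00 in knockout and 5.08, 5.73, 5.31 and 7.18 in wild type. Lpl fell under fasting in wild-type livers (-1.46 ± 0.35, limma adjusted p = 0.0127), had a fasting change of 0.07 ± 0.40 in knockout livers (adjusted p = 0.967), and differed by 1.31 ± 0.38 between the fasted genotypes (adjusted p = 0.176).

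Mfsd2a was most like Lipg, the endothelial lipase that acts on phospholipids (r = 0.95, 0.72 within groups). Lipg had a fasting change of 0.78 ± 0.26 in knockout livers (adjusted p = 0.128) and rose by 1.94 ± 0.23 in wild-type livers (adjusted p = 5.77e-05). Fabp2 was most like Hadha (r = 0.92, 0.83 within groups) and Decr1 (r = 0.91), which encode enzymes of mitochondrial fatty acid oxidation. Fabp5 was most like Serpina4-ps1 (r = 0.96) and Slc27a1 most like Sesn2 (r = 0.87). These correlations were picked as the highest of many, share the arrays and the group differences, and are given as descriptions.

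**Figure D4:**
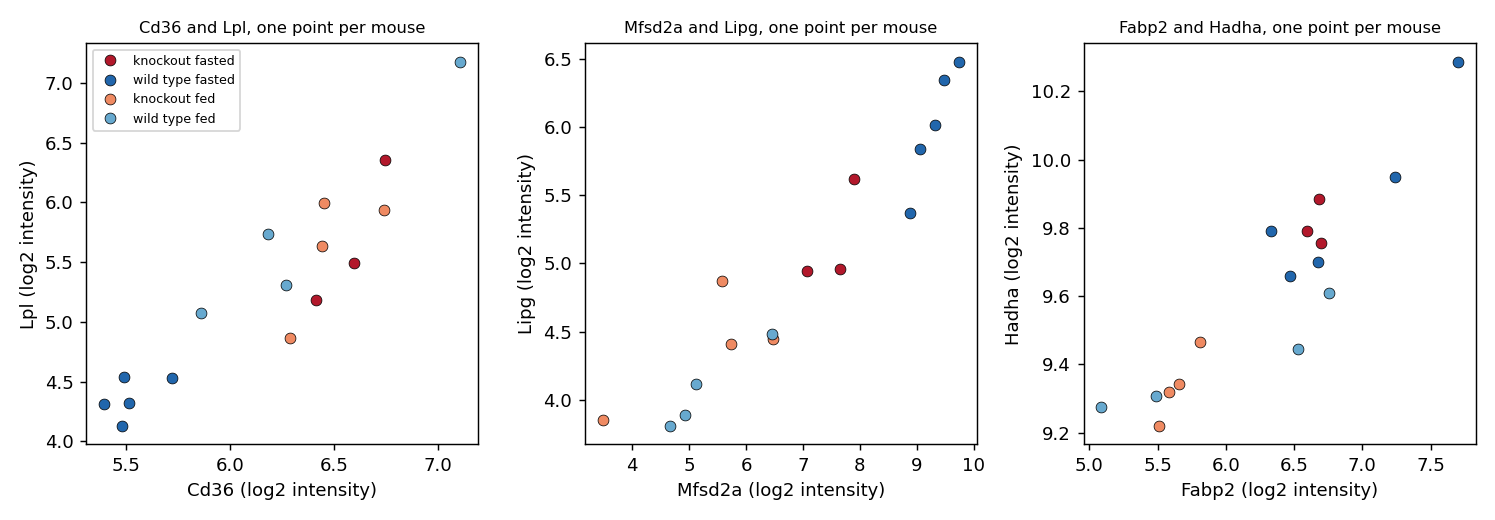
Log2 intensity of Cd36, Mfsd2a and Fabp2 (horizontal axes) against that of the gene most like each, Lpl, Lipg and Hadha (vertical axes), in the 16 mice, with a colour for each group. The 5 fasted wild-type mice lie at the low end of Cd36 and Lpl and at the high end of Mfsd2a. Their Lipg values are also high, but mouse 3 of them (5.37) lies below fasted knockout mouse 3 (5.62).

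Around the 9 genes, 34 of 38 other genes of fatty acid uptake, activation, supply and lysophospholipid handling were measured. Under fasting, 2 of the 34 rose and 1 fell in knockout livers, where 1.87% of all genes rose and 1.80% fell. In wild-type livers 4 rose and 5 fell, where 3.30% of all genes rose and 5.92% fell. Angptl4, a fasting-induced inhibitor of lipoprotein lipase, rose by 1.15 ± 0.22 in knockout and 1.35 ± 0.19 in wild-type livers (adjusted p = 0.00621 and 0.000258). Angptl8, a protein that feeding induces, fell by 1.98 on the log2 scale in wild-type livers (SE 0.36, adjusted p = 0.00187). Dbi, the acyl-CoA binding protein, fell in both genotypes (-0.65 ± 0.16 in knockout, adjusted p = 0.0254, and -0.71 ± 0.14 in wild-type livers, adjusted p = 0.00291). The acyl-CoA synthetases Acsl4 and Acsl5 fell in wild-type livers (-0.82 ± 0.16 and -0.56 ± 0.11). The scavenger receptor genes Scarb1 and Scarb2 rose there (0.46 ± 0.12 and 0.33 ± 0.09). In knockout livers these genes changed in the same directions without being called. The changes were -0.66 ± 0.19 for Acsl4, -0.45 ± 0.13 for Acsl5, 0.40 ± 0.13 for Scarb1 and 0.25 ± 0.10 for Scarb2 (limma adjusted p = 0.0592 to 0.24). None of the 6 other FABP family genes passed in any comparison.

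By genotype, none of the 34 genes passed in fasted livers, where 0.351% of all genes were higher and 0.186% were lower. In fed livers 1 passed, where 0.677% of all genes did. That gene was Lpcat2, which reacylates lysophosphatidylcholine and was higher in fed knockout livers (0.70 ± 0.09, limma adjusted p = 0.00203). Averaged over feeding states, where 1.55% of all genes passed, Lpcat2 was higher in knockout livers (0.48 ± 0.06). Vldlr, the receptor for very-low-density lipoprotein, and Scarb2 were lower in that average (-0.83 ± 0.17, adjusted p = 0.0212, and -0.34 ± 0.07, adjusted p = 0.0174). Lpcat2 is also made by macrophages. The summed signal of the 10 macrophage markers was higher in fed knockout livers, and 2 of the 10 were called. Lyz2 and Marco overlapped between the fed genotypes. The part of macrophages in the Lpcat2 result was not tested. Of 5 measured genes known to respond to fasting, Cpt1a and Cyp4a14 rose and Fasn fell in knockout and in wild-type livers. Plin2 had a change of 0.53 ± 0.15 in knockout (adjusted p = 0.0561) and rose by 0.86 ± 0.13 in wild-type livers (adjusted p = 0.000438). Pdk4, which fasting usually induces, did not pass in either (0.79 ± 0.61 in knockout, adjusted p = 0.609, and -0.74 ± 0.53 in wild-type livers, adjusted p = 0.436).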

How the data were processed

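Liver RNA of 16 mice was hybridised to an Affymetrix whole-transcript array, 1 array a mouse. The deposited intensities were made by the authors with RMA (background correction, normalization and summary per probe set), per the submitters' processing notes. They are on a linear scale, as their values show, and log2 was taken here. No label names the RMA software or its version. Of 35519 probe sets, 21780 had 1 gene symbol in the platform's annotation, 1605 had several and 12134 had none; the last 2 kinds were left out. Each of 19935 genes was represented by its brightest probe set on average. Groups came from the labels. One limma fit (version 3.58.1, R 4.3.3) of 4 group means, with 12 residual degrees of freedom and no trend, gave all comparisons, two-sided, adjusted by Benjamini-Hochberg over all genes within each. Code was tested on simulated data. Quantile normalization, median centring, a filter on dim genes, every probe set tested, a median over the probe sets of each gene, a variance trend, array weights, a replicate block, each mouse left out, fed knockout mice 1 and 4 left out and the 2 groups alone were tried. All 9 genes were tested in every comparison, but not every difference of the fasting changes or mean knockout effect is printed. Other pathway genes were named where called, and the 3 genes most like each member by Pearson's r were ranked. The members, lists, markers and alternatives were chosen with earlier results of these data known. The number of arrays limits the precision. The labels call the mice biological replicates. No scan date or other batch was recorded in the labels. The design text gives 4 to 5 mice a group, and 3 arrays of fasted knockout mice were analysed.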

Additional observations from a re-analysis of the deposited data

Results flagged for a closer look

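Single mice stood far from the others of their group for 3 genes, where chance gives such a value in about 1 in 20 groups. Every member was checked in each group of 4 or 5 mice, so some such values are expected by chance. The group of 3 fasted knockout mice was not checked. Fabp4 read 5.55 in fed knockout mouse 4, well above the other 3 mice. Fabp5 read 5.55 on its first and 5.34 on its second probe set in fasted wild-type mouse 1, and the 2 probe sets are not independent. Slc27a5 read 10.35 in fed knockout mouse 3, where the other 3 mice lay within 0.01 of each other.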

How the results depend on the processing

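The fasting calls in wild-type livers (Cd36 and Fabp5 lower, Mfsd2a higher) held in 26 of 26 alternatives. The size of the Cd36 fall depended on fed wild-type mouse 4. Without that mouse the change was -0.58 (limma adjusted p = 0.00584), against -0.83 in the main fit. In knockout livers the Fabp5 call held in 24 and the Mfsd2a call in 20 of 26, and Cd36 between the fasted genotypes in 23. The mean knockout effect on Cd36 was called in 12 of 25 (0.51 to 0.72), so that call rests on single mice of several groups. Arrays of 3 to 5 mice a group limit what can be called. The cause of the changes below was not tested.

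Against 1838, 732, 135, 107, 2 and 309 genes called for fasting in wild type, fasting in knockout, genotype in fed mice, genotype in fasted mice, the difference of the fasting changes and the mean knockout effect, leaving out 1 mouse at a time gave 1199 to 2006, 330 to 951, 59 to 274, 21 to 126, 0 to 8 and 175 to 359. Members called then ranged from 0 to 3 for fasting in knockout, 0 to 2 for genotype in fasted mice and 0 to 1 for the mean effect.

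Without fed knockout mice 1 and 4 together, 218 genes and 0 members were called for fasting in knockout, 51 genes for genotype in fed mice, 1 for the difference of the fasting changes, and 171 genes and 0 members for the mean effect. Signs turned for Cd36 (-0.0062) and Fabp4 (0.27) under fasting in knockout, for Fabp4 (-0.32), Fabp5 (-0.42) and Mfsd2a (-0.32) between fed genotypes, for Fabp1 (-0.021) and Slc27a5 (-0.0115) in the difference, and for Fabp5 (-0.023) in the mean effect.

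Quantile normalization called 5 members for fasting in wild type, adding Fabp2 (0.99) and Slc27a4 (0.30). The 2 groups fitted alone gave 401 genes for fasting in knockout, 76 for genotype in fed mice, and 2 members for genotype in fasted mice. Array weights gave 185 genes there. Dropping dim genes or using a variance trend gave 1 gene for the difference. Median centring turned Fabp1 (0.014) and Slc27a5 (0.0041) between fasted genotypes.

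Same-numbered mice of 2 groups had deviations that correlated at -0.08 to 0.23. The rule for pairing, above 0.1 in every pair of 2 groups, was not met, so the numbers were read as names. Weaker links would not meet this rule: fasted and fed wild-type pairs correlated at 0.079 to 0.118. For Fabp1, mouse 1 was the highest of its group in all 4 groups. With a replicate block, 1656, 745, 170, 73, 1 and 315 genes were called in the order above, with 3, 2, 0, 1, 0 and 1 members. The replicate block turned Fabp4 under fasting in knockout (0.030) and Fabp1 in the difference (-0.061), and changed no member's call.

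Leaving out 1 mouse turned the sign of these small changes, none of them called. Under fasting they were Slc27a5 in wild type (-0.0018 to 0.13), and Fabp4 (-0.55 to 0.22) and Slc27a4 (-0.19 to 0.039) in knockout. Between fed genotypes they were Cd36 (-0.039 to 0.38), Fabp1 (-0.12 to 0.0175), Fabp4 (-0.27 to 0.41), Fabp5 (-0.20 to 0.28) and Mfsd2a (-0.36 to 0.64). Between fasted genotypes they were Fabp1 (-0.14 to 0.038) and Slc27a1 (-0.012 to 0.20). In the difference they were Fabp1 (-0.079 to 0.10), Fabp2 (-0.17 to 0.39), Fabp4 (-0.072 to 0.69) and Slc27a5 (-0.052 to 0.076), and in the mean effect Slc27a1 (-0.069 to 0.035).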
